A study of Medicago truncatula with 6 samples.

Results

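The genes described here are the rows of the deposited Medicago truncatula root table whose gene description or closest Swiss-Prot entry names a chitinase. Of the 51519 annotated genes in a table of 54762 loci, 70 carried the word. MTR_6g079630 and MTR_8g055940, which belong to a group with lower fitted levels in the mutant, were set aside by name and left out. Also left out were 2 genes whose closest entry is a kinase, which left 66 members. By the Pfam domains that the table lists, 41 of the 66 held a glycoside hydrolase family 18 domain (GH18), 12 a family 19 domain (GH19) and 6 a Barwin domain, the mark of PR-4 proteins, and 7 held none of these. The word was therefore wider than the enzyme: MTR_6g082480, for example, was described as a chitinase and PR-4 protein but carried a lipid transfer domain.

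RNA came from mycorrhizal roots of the wild-type line R108 and of the Mtphr2 mutant, which the labels place in the R108 line, with 3 libraries per genotype. Both groups were mycorrhizal, so no uncolonised root stands beside them, and the labels used here give neither the age of the plants nor the fungus nor the mutant allele. The study asked which genes differ between the wild type and the mutant when roots are mycorrhizal. Since the labels speak of technical replicates, p-values measure the spread between these libraries and may not cover that between plants.

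Chitin, a polymer of N-acetylglucosamine, is a main component of fungal cell walls, and plants make many secreted chitinases that cut it. GH18 and GH19 enzymes have unrelated folds. In plants the GH18 family holds chitinases of classes III and V, and GH19 those of classes I, II and IV, of which classes I and IV usually carry a hevein-type domain that binds chitin. PR-4 proteins are small pathogenesis-related proteins whose Barwin domain takes its name from a barley protein. Chitinases act in defence against fungi, and they also trim chitin fragments that serve as signals between roots and symbionts. Class III chitinase genes are known to be expressed in cells that hold arbuscules, the branched fungal structures of arbuscular mycorrhiza.

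Library totals ran from 18199040 to 21477169 estimated counts. Levels are given as CPM, counts divided by the TMM-scaled size of the library, with SD over n = 3 libraries, and fold changes carry a standard error (SE). Arbuscule markers differed widely between libraries of a genotype. The phosphate transporter gene PT4 had 1705, 819 and 404 CPM in R108 replicates 1, 2 and 3 and 403, 38.3 and 89.0 CPM in Mtphr2 replicates 1, 2 and 3. All 7 arbuscule markers had their highest level in R108 replicate 1, and their mean log2 CPM was 7.04 ± 1.17 in R108 (range 5.87 to 8.20) and 4.26 ± 1.46 in Mtphr2 (range 3.07 to 5.89). All 7 Casparian strip genes, which mark the root endodermis, were tested, 6 with a negative log2 fold change (median -0.32) and 0 with an unadjusted edgeR p under 0.05. Their sum was 329 CPM in R108 replicate 3 and 109 to 177 CPM in the 5 others. Of 12 leghemoglobin genes, which mark nodules, 7 had no counts. The sum of the 12 was low and did not overlap between the genotypes, at 4.12 to 11.6 CPM in R108 and 1.96 to 3.64 CPM in Mtphr2, and the 1 tested gene had a log2 fold change of -1.42 with an unadjusted edgeR p under 0.05. The part of either cell type in the results was not tested. Fewer cells of a type and less RNA per cell cannot be told apart in such whole-root samples.

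Of the 66 members, 31 had enough counts to be tested, 17 had no count in any library and 18 had counts too low for a test, at most 42 in any library. The tested members split in direction. In wild-type roots 5 GH18 genes had fitted levels 7.53-fold to 21.9-fold above those of Mtphr2, each with an unadjusted p under 0.05. All 5 tested GH19 genes with a chitin-binding domain had higher fitted levels in Mtphr2, by 1.25-fold to 4.18-fold, 1 of them with an unadjusted p under 0.05. Of these GH19 genes only MTR_3g118390 had genotypes that did not overlap. Among them MTR_8g074330 and MTR_8g074335 are neighbours by locus number, as are MTR_2g099450 and MTR_2g099470. The log2 fold change of MTR_8g074330 fell as low as -0.044 with 1 library left out. Without R108 replicate 1 the log2 fold changes of those 5 GH18 genes lay between -2.28 and -0.86, beside -4.45 to -2.91 with all libraries. Of the 16 tested GH18 genes, 8 had a positive log2 fold change. Over the whole GH19 family, 9 genes were tested, 6 with a positive and 3 with a negative log2 fold change. In all, 18 members had a positive and 13 a negative fitted log2 fold change, Mtphr2 against R108. Of all 22663 tested genes, 11853 (52.3%) were positive. Fitted differences of at least 2-fold were found for 13 members, 6 higher and 7 lower in Mtphr2, beside 8.43% of all tested genes (3.59% higher and 4.84% lower).

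By edgeR's quasi-likelihood test, with p-values adjusted over all genes by the Benjamini-Hochberg method, 0 of the 31 passed at 0.05, beside 18 of all tested genes (0.0794%). An unadjusted p under 0.05 was found for 10 members, 3 higher and 7 lower in Mtphr2, and for 16.4% of all tested genes (8.01% higher and 8.41% lower). With the replicate number as a block, edgeR called 0 members (0.335% of all tested genes), and limma-voom called 0 (0.137%). DESeq2 called 5, namely MTR_1g099320 and MTR_3g118390 as higher and MTR_0002s1060, MTR_7g116350 and MTR_1g080820 as lower, and it called 5.73% of all tested genes (2.77% higher and 2.96% lower). DESeq2 made false calls above its threshold on counts simulated with edgeR's own estimates of spread. That setting favours edgeR and cannot rank the fits. For members, DESeq2's calls are given with edgeR's p beside them. The levels of the genotypes did not overlap for 7 members, 3 higher and 4 lower in Mtphr2, beside 22.2% of all tested genes (11.6% higher and 10.6% lower). The median log2 fold change of the tested members was 0.47 and the mean -0.23, which differ in sign, beside a median of 0.02 over all tested genes. Taken within libraries of the same number as log2(CPM + 0.1), the median difference of the members was 0.15, 0.09 and -0.03 for numbers 1, 2 and 3, so the median of the fitted changes was larger than that of the paired levels.

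**Figure D1:**
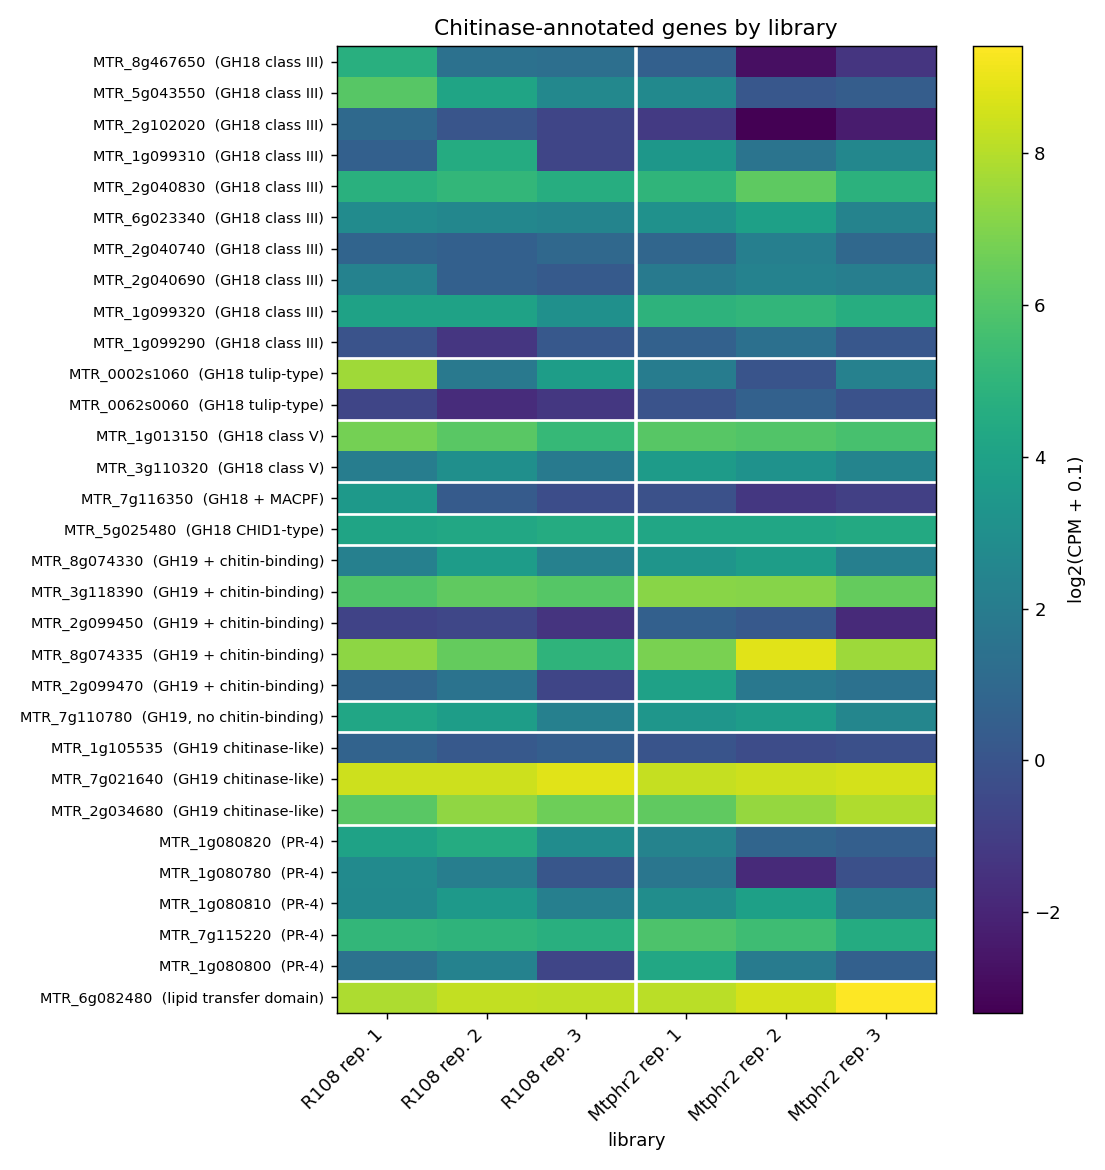
Levels of the 31 tested members in each of the 6 libraries, as log2(CPM + 0.1), with rows grouped by domain class and the white vertical line between R108 (left) and Mtphr2 (right). MTR_7g021640 and MTR_6g082480 are bright in all libraries, and MTR_0002s1060 and MTR_7g116350 are brightest in R108 replicate 1.

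**Figure D2:**
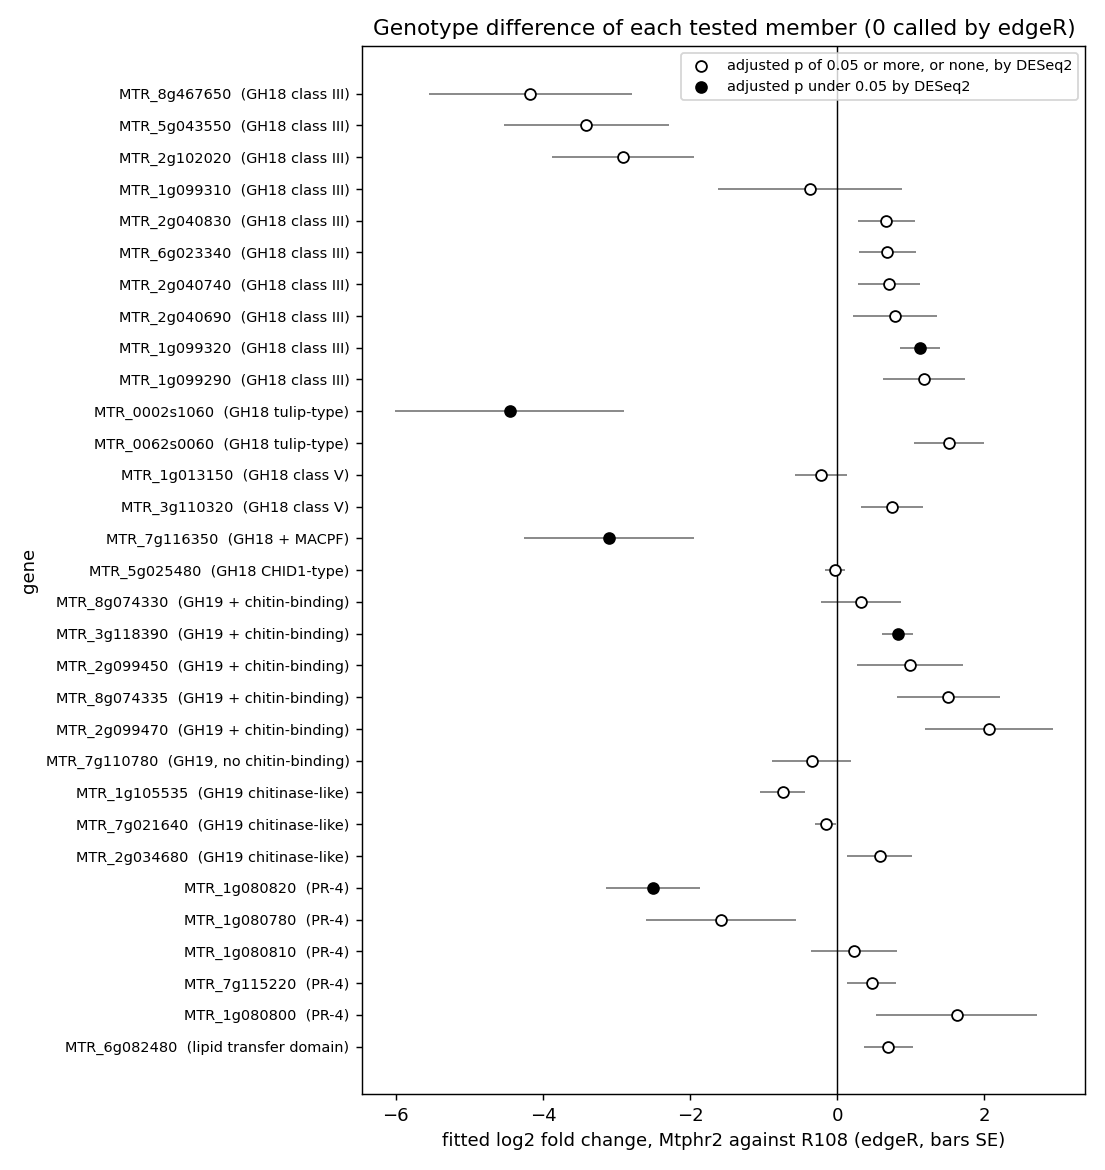
Fitted log2 fold change of each tested member, Mtphr2 against R108, with bars of 1 SE from edgeR. Filled points are the 5 members that DESeq2 called, and the class III genes lie on both sides of 0.

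Class III chitinases of the GH18 family, whose closest entries are hevamine-A of the rubber tree or acidic and basic endochitinases, were 16 members, of which 10 were tested, 6 with a positive and 4 with a negative log2 fold change. The class held both patterns. MTR_5g043550, closest to an acidic endochitinase of grape, had 69.3, 17.0 and 6.01 CPM in R108 replicates 1, 2 and 3 and 6.48, 1.01 and 1.24 CPM in Mtphr2 replicates 1, 2 and 3. It was highest in R108 replicate 1, and the genotypes overlapped, since Mtphr2 replicate 1 lay above R108 replicate 3. Its fitted level was 10.6-fold lower in Mtphr2 (log2 fold change -3.41, SE 1.12, adjusted p = 0.255 by edgeR, 0.0556 with the replicate block and 0.0631 by DESeq2), and the log2 fold change was -1.99 without R108 replicate 1.

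MTR_8g467650, closest to hevamine-A, had 26.2, 2.56 and 2.38 CPM in the R108 libraries and 1.41, 0.046 and 0.286 CPM in the Mtphr2 libraries, in the order of their numbers. All R108 libraries lay above all Mtphr2 libraries, and R108 replicate 1 stood far above both others of its genotype. The log2 fold change was -4.17 with an SE of 1.38 (adjusted p = 0.256 by edgeR, 0.0556 with the replicate block), and DESeq2 gave no adjusted p. It was -2.10 without R108 replicate 1 and -5.92 without Mtphr2 replicate 1. MTR_2g102020, also closest to hevamine-A, was near the detection limit, with 1.95, 0.923 and 0.542 CPM in R108 and 0.351, 0 and 0.0952 CPM in Mtphr2. Its genotypes did not overlap either (log2 fold change -2.91, adjusted p = 0.256 by edgeR, and -4.42 to -2.28 with 1 library left out).

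The opposite direction was clearest in MTR_1g099320, a hevamine-A-like gene. Its levels were 15.9, 16.1 and 8.29 CPM in R108 replicates 1, 2 and 3, and 30.3, 33.1 and 24.8 CPM in Mtphr2 replicates 1, 2 and 3. Every Mtphr2 library lay above every R108 library. The mean was 13.4 ± 4.45 CPM in R108 and 29.4 ± 4.25 CPM in Mtphr2. This 2.19-fold fitted difference passed DESeq2's test (adjusted p = 0.00869) and did not pass edgeR's (log2 fold change 1.13, SE 0.272, adjusted p = 0.195, and 0.0655 with the replicate block). With any 1 library left out, its log2 fold change ran from 0.86 to 1.28.

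MTR_1g099320 has 3 neighbours by locus number, MTR_1g099290, MTR_1g099310 and MTR_1g099350, all class III. MTR_1g099310 had 1.41, 22.9 and 0.542 CPM in R108 and 10.7, 2.86 and 5.76 CPM in Mtphr2, a 42.2-fold range inside the wild type. Its log2 fold change was -0.37 with all libraries and 2.71 without R108 replicate 2. MTR_1g099290 stayed at 2.53 CPM or lower in all libraries, with a log2 fold change of the same direction as MTR_1g099320 and overlapping genotypes (1.18, adjusted p = 0.348 by edgeR), and MTR_1g099350 had at most 11 counts in a library and was not tested.

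A second run of 8 neighbours, MTR_2g040650 to MTR_2g040900, held 3 tested class III genes, all closest to hevamine-A. MTR_2g040830 was the most abundant, with 26.6, 34.7 and 24.3 CPM in R108 and 31.6, 75.1 and 29.1 CPM in Mtphr2. Mtphr2 replicate 2 stood apart and the other libraries of the mutant lay inside or close to the wild-type range (log2 fold change 0.67, SE 0.387, adjusted p = 0.436 by edgeR). MTR_2g040740 followed the same library, with 4.37 CPM in Mtphr2 replicate 2 and 1.38 to 1.90 CPM in the 5 others. MTR_2g040690 had 4.94, 1.38 and 1.14 CPM in R108 and 3.66, 4.97 and 4.24 CPM in Mtphr2. All 3 tested genes of this run had counts that were not whole in at least 1 library, so how reads were split among neighbours is uncertain. The remaining class III gene, MTR_6g023340, which is closest to a basic endochitinase of tobacco, had 5.20 to 7.06 CPM in R108 and 5.14 to 15.2 CPM in Mtphr2.

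The next class of GH18 genes, 17 members, is closest to chitinases 1 and 2 of a tulip, and some are described as narbonin-like seed proteins, a GH18 group without known chitinase activity. Only MTR_0002s1060 and MTR_0062s0060 were tested, 7 had no count, and the highest count among the 8 others was 17. MTR_0002s1060 had the largest fitted difference of all tested members. It had 191, 3.49 and 13.5 CPM in R108 replicates 1, 2 and 3 and 3.92, 0.875 and 4.71 CPM in Mtphr2 replicates 1, 2 and 3. R108 replicate 1 was 54.7-fold above R108 replicate 2, which lay below Mtphr2 replicates 1 and 3, so the genotypes overlapped. The difference passed DESeq2's test (adjusted p = 0.0492), but not edgeR's (log2 fold change -4.45, SE 1.56, adjusted p = 0.266), and without R108 replicate 1 the log2 fold change was -1.43.

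MTR_0062s0060, one of 7 neighbours on an unplaced scaffold, was low throughout, with 0.543, 0.205 and 0.325 CPM in R108 and 0.853, 1.43 and 0.809 CPM in Mtphr2. The genotypes did not overlap (log2 fold change 1.52, SE 0.480, adjusted p = 0.244 by edgeR and 0.187 by DESeq2). The table gives this gene the Entrez identifier of 2 other members, and 7 further members share another identifier, so these rows may be near-identical copies whose reads cannot be told apart.

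MTR_7g116350 joins a GH18 domain to a MACPF domain, a fold of pore-forming proteins, and its closest entry is the Arabidopsis protein NSL1, which limits cell death and defence. It had 11.5, 1.18 and 0.704 CPM in R108 and 0.803, 0.322 and 0.429 CPM in Mtphr2. Only R108 replicate 1 was high, and R108 replicate 3 lay below Mtphr2 replicate 1. The difference passed DESeq2's test (adjusted p = 0.0461), and not edgeR's (adjusted p = 0.277). The log2 fold change was -3.10 (SE 1.16) with all libraries and -0.86 without R108 replicate 1.

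Class V chitinases were 6 members, 2 of them tested. The relatives of this class in legumes include enzymes that cleave Nod factors, the rhizobial signals with a chitin-like backbone. MTR_1g013150, whose closest entry is the Medicago class V chitinase CHIT5a, had 105.9, 70.9 and 37.1 CPM in R108 and 67.8, 63.0 and 52.4 CPM in Mtphr2. The mutant libraries lay inside the wild-type range (log2 fold change -0.22, SE 0.354, adjusted p = 0.791 by edgeR). Its sign turned to 0.18 without R108 replicate 1. MTR_3g110320, closest to the Arabidopsis class V chitinase, had 3.63 to 8.15 CPM in R108 and 5.33 to 12.5 CPM in Mtphr2, and MTR_4g117000, closest to CHIT5b, had at most 4 counts in a library. The remaining GH18 gene, MTR_5g025480, whose closest entry is a rat chitinase domain-containing protein, was among the steadiest members, with 20.1 ± 2.83 CPM in R108 and 19.7 ± 1.56 CPM in Mtphr2.

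GH19 genes with a hevein-type chitin-binding domain, the classical defence chitinases of classes I and IV, were 6 members, 5 of them tested. All 5 had positive log2 fold changes, with a median of 0.99. MTR_3g118390, a class I chitinase closest to endochitinase A2 of pea, had 60.7, 78.2 and 66.6 CPM in R108 replicates 1, 2 and 3 and 140.0, 138 and 85.0 CPM in Mtphr2 replicates 1, 2 and 3. The genotypes did not overlap. The mean was 68.5 ± 8.92 CPM in R108 and 121 ± 31.3 CPM in Mtphr2, which passed DESeq2's test (adjusted p = 0.0198). By edgeR the 1.77-fold difference did not pass (log2 fold change 0.82, SE 0.213, adjusted p = 0.201, and 0.115 with the replicate block), and with 1 library left out it ran from 0.71 to 1.02.

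MTR_8g074335, a class I chitinase closest to a pea endochitinase, was the most abundant member of this class. It had 152, 83.7 and 30.9 CPM in R108 and 116, 458 and 184 CPM in Mtphr2. The genotypes overlapped, since R108 replicate 1 lay above Mtphr2 replicate 1, and each genotype spanned a wider range than the fitted difference, 4.92-fold in R108 and 3.95-fold in Mtphr2. The fitted level was 2.84-fold higher in Mtphr2 (adjusted p = 0.341 by edgeR), which on the log2 scale is 1.51 with an SE of 0.699. The log2 value was 0.76 without Mtphr2 replicate 2, 2.14 without R108 replicate 1 and 2.48 without replicate 1 of both genotypes. Its neighbour MTR_8g074330, of the same description, had 4.48 to 13.4 CPM over all libraries, with overlapping genotypes. The log2 fold change of MTR_8g074330 was 0.32 with all libraries and as low as -0.044 with 1 library left out. The third neighbour, MTR_8g074350, had at most 42 counts and was not tested. The counts of MTR_8g074335 and MTR_8g074330 were not whole in at least 1 library.

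The class IV genes, which lack part of the class I sequence, were low. MTR_2g099470, closest to the bean endochitinase PR4, had 1.74, 2.82 and 0.542 CPM in R108 and 15.5, 3.36 and 2.62 CPM in Mtphr2. Mtphr2 replicate 1 stood apart, and without it the difference was smaller, the lowest log2 fold change with 1 library left out being 0.81 against 2.06 with all (SE 0.865, adjusted p = 0.308 by edgeR). Its neighbour MTR_2g099450, closest to the Arabidopsis endochitinase EP3, had 0.19 to 1.41 CPM.

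**Figure D3:**
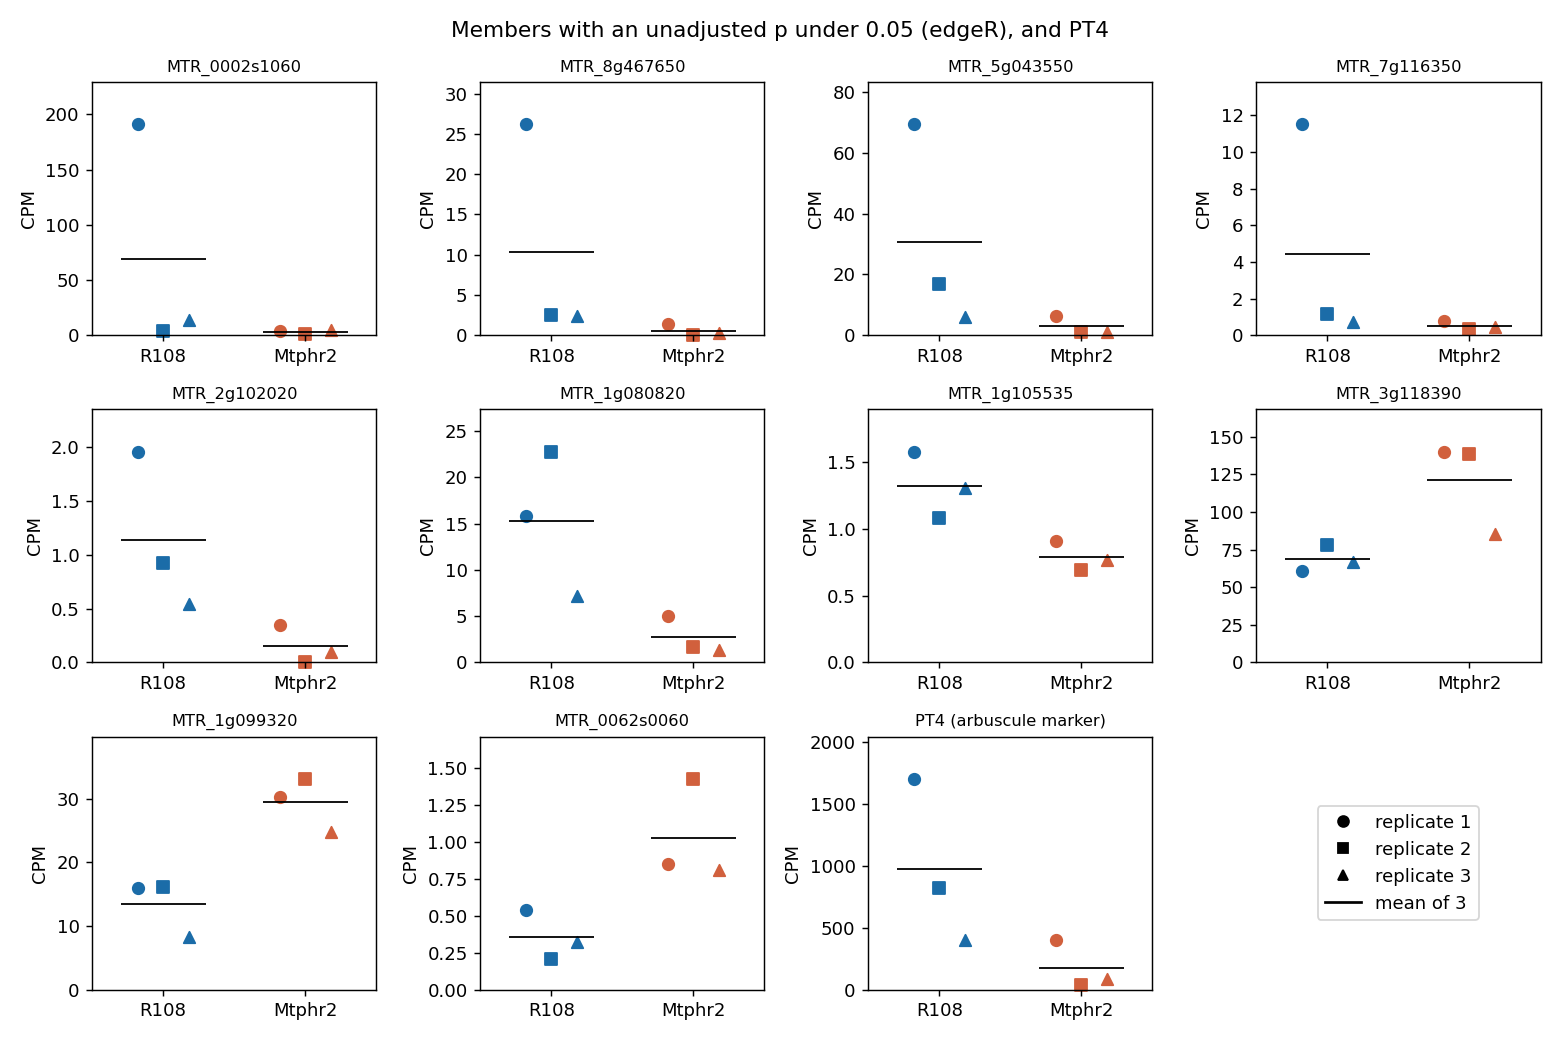
CPM in each library for the 10 members with an unadjusted p under 0.05 by edgeR, ordered by fold change, and for the arbuscule marker PT4. Symbols give the replicate number and lines the mean of 3 libraries; in the first 4 panels R108 replicate 1 lies far above the other 5 libraries, which is also the library with the highest PT4 level.

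Chitinase-like proteins of the GH19 family are a separate line. In Arabidopsis, CTL1 and CTL2 act in the assembly of cellulose in the cell wall rather than in defence. Of 4 members, 3 were tested, and they included the GH19 gene with the highest mean CPM over all libraries. MTR_7g021640, closest to CTL1, had 352, 349 and 463 CPM in R108 and 317, 343 and 383 CPM in Mtphr2, overlapping levels (log2 fold change -0.16, SE 0.146, adjusted p = 0.629 by edgeR). The table describes it as a nodule cysteine-rich peptide, but its domain is that of GH19. MTR_2g034680, closest to CTL2, had 71.9, 156 and 95.4 CPM in R108 and 79.7, 167 and 236 CPM in Mtphr2 (log2 fold change 0.58, SE 0.442, adjusted p = 0.552 by edgeR). MTR_1g105535, a second CTL1-like gene, was low, with 1.57, 1.08 and 1.30 CPM in R108 and 0.904, 0.691 and 0.762 CPM in Mtphr2. Its genotypes did not overlap (adjusted p = 0.303 by edgeR and 0.403 by DESeq2), and the log2 fold change was -0.74 with an SE of 0.306. The other tested GH19 gene, MTR_7g110780, closest to chitinase 10 of rice, had 4.50 to 18.4 CPM in R108 and 5.62 to 13.0 CPM in Mtphr2.

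PR-4 genes were 6 members, 5 tested, of which 4 are neighbours, MTR_1g080780 to MTR_1g080820. The neighbours differed in direction. Counts of MTR_1g080820 and MTR_1g080810 were not whole in at least 1 library, so how reads were split among neighbours is uncertain. MTR_1g080820, closest to tobacco PR-4A, had 15.8, 22.8 and 7.20 CPM in R108 replicates 1, 2 and 3 and 5.07, 1.70 and 1.33 CPM in Mtphr2 replicates 1, 2 and 3. The genotypes did not overlap, and here R108 replicate 2 was the highest library. The mean was 15.3 ± 7.80 CPM in R108 and 2.70 ± 2.06 CPM in Mtphr2, which passed DESeq2's test (adjusted p = 0.00229). By edgeR the 5.66-fold difference did not pass (adjusted p = 0.199, and 0.0820 with the replicate block). Its log2 fold change was -2.50 with an SE of 0.635, and with 1 library left out it ran from -3.32 (without Mtphr2 replicate 1) to -2.09 (without R108 replicate 2).

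MTR_1g080800, of the same closest entry, had 2.71, 4.87 and 0.542 CPM in R108 and 19.98, 3.87 and 1.38 CPM in Mtphr2. Its log2 fold change was 1.63 with all libraries (adjusted p = 0.499 by edgeR) and -0.045 without Mtphr2 replicate 1. MTR_1g080780 had 6.68, 4.26 and 0.975 CPM in R108 and 3.06, 0.184 and 0.762 CPM in Mtphr2 (log2 fold change -1.58), and MTR_1g080810 had 3.33 to 15.2 CPM over all libraries (log2 fold change 0.23). MTR_7g115220, which joins a Barwin domain to a chitin-binding domain and is closest to the Arabidopsis hevein-like protein, had 34.0, 30.6 and 25.7 CPM in R108 and 58.4, 44.1 and 22.4 CPM in Mtphr2 (log2 fold change 0.47, adjusted p = 0.524 by edgeR).

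MTR_6g082480, the lipid transfer gene among the members, was abundant, with 229.7, 299 and 297 CPM in R108 and 275, 381 and 682 CPM in Mtphr2. Mtphr2 replicate 3 was the highest library and the genotypes overlapped (log2 fold change 0.70, SE 0.331, adjusted p = 0.353 by edgeR). The other 6 members without a GH18, GH19 or Barwin domain were not tested, and 5 of them had no count.

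**Figure D4:**
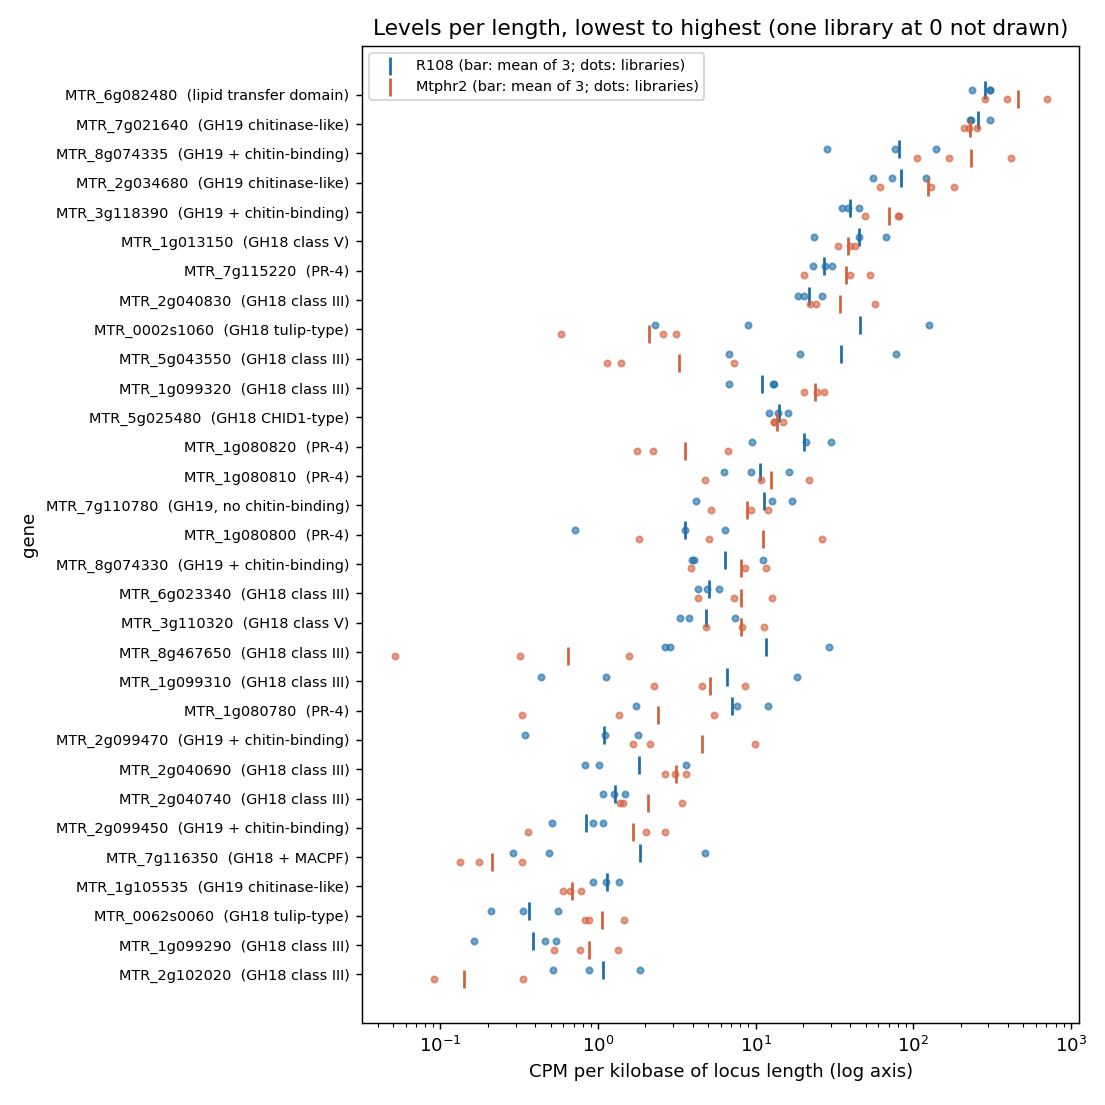
CPM per kilobase of locus length on a log axis for the 31 tested members, from lowest to highest mean over all libraries, with dots for libraries and bars for the mean of each genotype. MTR_6g082480 and the CTL1-like MTR_7g021640 stand at the top, and one Mtphr2 library of MTR_2g102020 at 0 is not drawn.

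Per length, the order of levels was set by chitinase-like and class I genes. Among members with a glycoside hydrolase domain, MTR_7g021640 had the highest level in R108, 256 CPM per kilobase, followed by MTR_2g034680 with 83.4 and MTR_8g074335 with 81.4, whose library ranges overlapped. In Mtphr2, MTR_8g074335 had 231 CPM per kilobase and MTR_7g021640 had 229, and these too overlapped. The class V gene MTR_1g013150 had 45.2 ± 21.8 CPM per kilobase in R108. MTR_0002s1060 had 45.8 ± 69.7 CPM per kilobase in R108, a mean carried by R108 replicate 1, and 2.10 ± 1.34 in Mtphr2.

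Summed over all members, chitinase-annotated transcripts were 1287 ± 157 CPM in R108 and 1618 ± 309 CPM in Mtphr2. The libraries overlapped, at 1134 to 1447 CPM in R108 and 1262 to 1819 CPM in Mtphr2. These sums include the lipid transfer gene MTR_6g082480, at 275 ± 39.4 CPM in R108 and 446 ± 211 CPM in Mtphr2. They also include MTR_8g074335, at 88.8 ± 60.6 CPM in R108 and 253 ± 181 CPM in Mtphr2. The mean GH18 sum went the other way, from 276 CPM in R108 to 199 CPM in Mtphr2. The families differed in which libraries were high. GH18 genes summed to 488, 209 and 130.5 CPM in R108 replicates 1, 2 and 3 and to 202, 234 and 160.3 CPM in Mtphr2 replicates 1, 2 and 3. GH19 genes summed to 663, 699 and 667 CPM in R108, a narrow range, and to 691, 1140 and 902 CPM in Mtphr2. Both sums overlapped between the genotypes. PR-4 genes summed to 59.4 ± 18.3 CPM in R108 and 62.8 ± 32.5 CPM in Mtphr2.

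**Figure D5:**
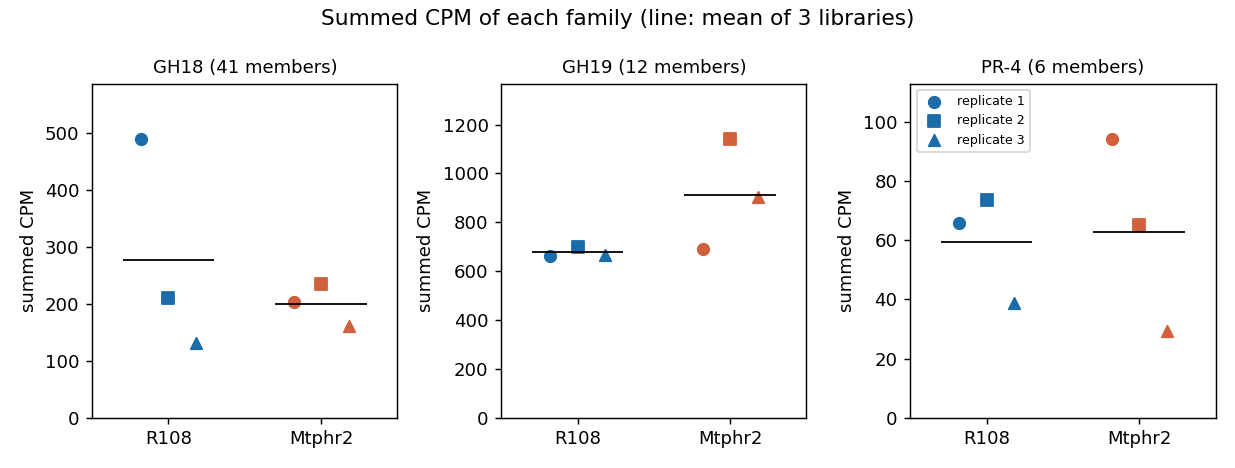
Summed CPM of all GH18, GH19 and PR-4 members in each library, with symbols for the replicate number and lines for the mean of 3 libraries. The GH18 sum is highest in R108 replicate 1, at 488 CPM, and the GH19 sum in Mtphr2 replicate 2, at 1140 CPM.

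The library with the most arbuscule marker transcript was also the highest for several members. R108 replicate 1 was the highest of the 6 libraries for 9 of the 31 tested members and for 18.6% of all tested genes. All 9 had a negative log2 fold change, a direction that a highest library in R108 already favours. Mtphr2 replicate 2, which had the lowest mean marker level, was the highest for 10 members and for 11.9% of all tested genes. A highest library in Mtphr2 likewise favours a positive log2 fold change. These 10 included the neighbours MTR_2g040690, MTR_2g040740 and MTR_2g040830, and the neighbours MTR_8g074330 and MTR_8g074335. All of those had counts that were not whole in at least 1 library. The neighbours MTR_1g099290 and MTR_1g099320 were also among the 10. The remaining libraries were not counted in this way. The genes MTR_6g079630 and MTR_8g055940, left out by name, had 111 and 117 CPM in R108 replicate 1 and 12.9 CPM or less in every other library, where MTR_5g043550 had 69.3 CPM in R108 replicate 1 and MTR_0002s1060 had 191. The mean of the markers was also entered in the edgeR fit as a covariate. The log2 fold change was then 0.12 for MTR_5g043550 (SE 0.464), -0.27 for MTR_8g467650 (SE 0.830), -0.32 for MTR_0002s1060 (SE 2.23) and 0.67 for MTR_7g116350 (SE 1.37). Each was -3.10 or lower without the covariate, and none of these genes passed edgeR's test. With the covariate the log2 fold change was 1.52 for MTR_1g099320 (SE 0.435), 0.88 for MTR_3g118390 (SE 0.340) and -1.04 for MTR_1g080820 (SE 0.641). Other members moved further from 0. The log2 fold change rose from 2.06 to 3.98 for MTR_2g099470 and from 1.63 to 3.82 for MTR_1g080800. Neither passed edgeR's test (adjusted p = 0.137 and 0.293). Marker level and genotype cannot be told apart with these libraries, whose mean marker levels overlapped between the genotypes only for R108 replicate 3 (5.87) and Mtphr2 replicate 1 (5.89).

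Beta-glucanases cut the glucan of fungal walls and often act beside chitinases. Of 73 such genes 51 were tested, 20 with positive and 31 with negative log2 fold changes and a median of -0.07. DESeq2 called 2 higher and 2 lower, beside 5.73% of all tested genes, and edgeR called 0. An unadjusted edgeR p under 0.05 was found for 3 higher and 7 lower, beside 16.4% of all tested genes. MTR_2g034480 had the lowest adjusted p by DESeq2, with 137, 140.2 and 102.5 CPM in R108 and 241, 194 and 277 CPM in Mtphr2 (log2 fold change 0.91, adjusted p = 9.4e-04 by DESeq2 and 0.153 by edgeR). Thaumatin-like genes, of which 20 of 46 were tested, had a median of 0.07 and PR-1 genes, of which 9 of 24 were tested, a median of 0.01, with 0 called by edgeR, edgeR with the replicate block or DESeq2 in either list. An unadjusted edgeR p under 0.05 was found for 2 thaumatin-like and 0 PR-1 genes. The 3 other hevein or PR-4 genes had log2 fold changes of 0.02 to 0.43, with a median of 0.25, and 0 had an unadjusted edgeR p under 0.05. LysM genes, many of which bind chitin, had 32 of 50 tested and a median of -0.06. DESeq2 called 4 higher and 0 lower, beside 2.77% and 2.96% of all tested genes. EdgeR called 0, and gave those 4 an adjusted p of 0.103 to 0.215. At an unadjusted edgeR p under 0.05, 5 were higher and 3 lower, beside 8.01% and 8.41% of all tested genes. Fitted levels were at least 2-fold higher for 4 and at least 2-fold lower for 5, beside 3.59% and 4.84% of all tested genes.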

How the data were processed

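Whole-root RNA of 3 R108 and 3 Mtphr2 libraries was sequenced. Per the labels' protocols, TRIzol was used for extraction, and Illumina NovaSeq reads were aligned and assembled on version 4.0 of the Medicago truncatula genome with HISAT2 and StringTie. DESeq2 is also named in the submitters' processing notes. For tool versions and the counting program, the labels used here state nothing. The authors' deposited values are expected counts, also called estimated counts, per locus. The deposited locus length has no stated unit and was taken as bases. Strand handling is not stated.

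Counts were rounded to whole numbers. Genes were kept by filterByExpr of edgeR (minimum count 10, minimum total 15) and scaled by TMM. Genotypes were compared over all kept genes by edgeR 4.0.16 in R 4.3.3 (quasi-likelihood test, Benjamini-Hochberg adjustment at 0.05), with SE taken from the F statistic. DESeq2 1.42.0, limma 3.58.1 (voom), other scalings and filters, single libraries left out, a replicate block and a marker covariate were alternatives, and leaving out replicate 1 of both genotypes was chosen after seeing the data. On simulated counts with known changes, the share of false calls was close to the threshold for edgeR and limma-voom, above it with the replicate block and furthest above it for DESeq2. These counts were drawn independently for each library with edgeR's estimates of spread and without variation shared by replicate number. That setting favours edgeR, so the simulation cannot rank the fits on the real libraries. Members, lists and the rule for named genes (calls by any tool, unadjusted p under 0.05 at 1 CPM, the 10 most abundant and the 3 highest and 3 lowest changes) were chosen with earlier results of these data known. Domain families follow the table's Pfam column, which differs from annotation words for 2 members. Of the tested members 13 had counts that were not whole (tolerance 0.005) in some library, against 26.5% of all tested genes.

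With genotype means removed, same-numbered libraries had correlations of 0.377, 0.151 and 0.168 across genes. Differently numbered libraries had -0.310 to 0.187, the highest for R108 replicate 3 with Mtphr2 replicate 2. Only number 1 stood above all of these, so pairing by number is an assumption that the values do not settle. The replicate block is given where a value nears the threshold. Pairs of libraries within a genotype had a chi-square per degree of freedom of 24.9 to 51.5, so none was a duplicate. No protein or promoter sequence was used here.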

Additional observations from a re-analysis of the deposited data

How the results depend on the processing

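The count of members called by edgeR stayed at 0 with the replicate block, with every other scaling and filter, with the marker covariate, by limma-voom and with any 1 library left out, and was 5 by DESeq2. The replicate block changed no call of a member. Over all genes, 18 calls became 76 with the replicate block, 1298 by DESeq2, 31 by limma-voom, 34 with no filter, 9 when genes needed a mean of at least 10 CPM, 28 with the marker covariate, 39 without replicate 1 of both genotypes and 7 to 44 with 1 library left out. The median log2 fold change of tested members, 0.47, was 0.24 without replicate 1 of both genotypes and 0.14 to 0.66 with 1 library left out. Of the 19 named genes, 5 changed sign with the marker covariate, to 0.67 for MTR_1g013150, -0.53 for MTR_2g034680, -0.034 for MTR_2g040830, 0.12 for MTR_5g043550 and 0.67 for MTR_7g116350. MTR_1g013150 also changed sign without R108 replicate 1 (-0.55 to 0.18 over the fits with 1 library left out) and without replicate 1 of both genotypes (0.094), and MTR_1g080800 without Mtphr2 replicate 1 (-0.045 to 2.36 over those fits) and without replicate 1 of both genotypes (-0.048). The other named genes kept their sign in all alternatives run, and the cause of these changes was not tested. Members at a mean near 1 CPM rest on few counts.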
